A study of Mus musculus with 2 samples.

Results

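The genes described are 8 transcripts by which glutamatergic (excitatory) neurons of the cerebral cortex and hippocampus are recognised: Slc17a7, Neurod2, Neurod6, Neurod1, Tbr1, Nrgn, Camk2a and Mef2c. They were found by the gene symbol, or an older synonym, that the array files give each spot, which yielded 11 probes of 1 spot each, among 41174 probes and 21506 named genes. The list was chosen by measured values of these same arrays, namely the signals and ratios between pools compared here. The ratios of the members are therefore given as a description, with no test. The study asked how a PPARα agonist acts on gene expression in the hypothalamus of mice. There were 4 groups of 4 mice, namely control mice at ZT10, bezafibrate-treated mice at ZT10, control mice at ZT22 and bezafibrate-treated mice at ZT22, where ZT counts hours after lights on. RNA of the 4 mice of a group was pooled and hybridised to 1 one-colour array, so a group is 1 array and has no replicate. By the labels, mice aged 8 weeks ate a normal diet for 2 weeks, a diet with 0.5% bezafibrate for 2 weeks and the normal diet for a further 5 weeks. This schedule is recorded here per deposited sample, each with a control and a bezafibrate array, and none is recorded for control mice apart. The labels do not say at which stage the tissue was taken, and they give no strain or sex. The tissue was a square block around the hypothalamus, so that nearby brain regions may be included in it.

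Slc17a7 encodes VGLUT1, the transporter that loads glutamate into synaptic vesicles in most cortical and hippocampal excitatory neurons. Hypothalamic and thalamic glutamatergic neurons mainly use its relative VGLUT2, encoded by Slc17a6. Neurod1, Neurod2 and Neurod6 are basic helix-loop-helix transcription factors of excitatory neuron differentiation, which bind the short DNA motif called the E-box. Tbr1 is a T-box transcription factor of deep-layer cortical neurons, and Mef2c is a MADS-box transcription factor of neurons, muscle and vessels. Nrgn (neurogranin) binds calmodulin in dendrites, and Camk2a is the α subunit of the calcium/calmodulin-dependent kinase CaMKII. Nrgn, Camk2a and Mef2c are known from many forebrain regions, including striatum and hypothalamus, and are less restricted to cortex and hippocampus than the others.

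Slc17a7 and Neurod2 had the widest differences between arrays among the members seen well above background on all 4, and the 250 bases before their start sites are therefore shown. The sequences are from RefSeq (build GRCm38.p6). They are written 5′ to 3′ on the strand of the gene, with E-boxes (CANNTG, the same on both strands) in capitals. The Slc17a7 window is chr7:45163671-45163920 on the plus strand and the Neurod2 window is chr11:98329646-98329895 on the minus strand.
Slc17a7: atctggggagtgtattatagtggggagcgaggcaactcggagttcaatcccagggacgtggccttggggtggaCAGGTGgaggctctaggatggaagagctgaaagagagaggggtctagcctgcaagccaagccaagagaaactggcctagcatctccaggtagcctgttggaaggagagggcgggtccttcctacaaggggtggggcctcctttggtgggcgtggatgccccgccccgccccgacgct
Neurod2: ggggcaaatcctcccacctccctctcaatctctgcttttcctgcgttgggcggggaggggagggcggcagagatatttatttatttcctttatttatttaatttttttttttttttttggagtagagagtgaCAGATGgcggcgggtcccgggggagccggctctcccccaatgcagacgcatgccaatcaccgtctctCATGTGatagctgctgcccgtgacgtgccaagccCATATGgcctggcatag
The Slc17a7 window held 1 E-box, CAGGTG, whose first base is at position -177 from the start site. The Neurod2 window held 3, CAGATG at -118, CATGTG at -51 and CATATG at -17. Windows were found for 7 of the 8 members, with 3 start sites for Mef2c, and Camk2a had no entry. An E-box was present in 8 of these 9 windows and in 66.2% of all 32851 windows of this length. The narrower motif CAGATG, a form of the E-box, was searched on both strands and found in 3 of 9 member windows and in 14.4% of all. The nuclear receptor half-site AGGTCA, also on both strands, was present in 2 of 9, both of Mef2c, and in 14.0% of all. The direct repeat AGGTCANAGGTCA, a form of the PPAR response element that contains this half-site, was in none of the 9 and in 0.0335% of all.

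The 75th percentile of the signal, to which each array was scaled, lay between 893 and 1050 intensity units, and 68.7% to 74.6% of features were well above background on an array. Of 20 hypothalamus marker genes, 19 were named on the array, and 18 were well above background on every array. Otp, a transcription factor of the hypothalamus, was so on 1 of the 4. The control arrays stood at positions 2 (ZT10) and 1 (ZT22) of the slide and the bezafibrate arrays at positions 4 and 3. Neither diet nor time can therefore be told apart from position. In pooled tissue, fewer cells of a type and less RNA per cell cannot be told apart either. Errors printed with ± combine the signal errors that the scanner software gives for both spots of a log2 ratio. Variation between mice or between pools is not part of them.

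At ZT10, Slc17a7 and Neurod2 had lower signals in the bezafibrate pool than in the control pool, and the other members did not pass 1.5-fold. For Slc17a7 (NM_182993) the processed signal at ZT10 was 71.5 units for control and 27.6 for bezafibrate, and at ZT22 it was 50.2 and 42.2 in the same order. The bezafibrate pool at ZT10 was the low array, and the control pool at ZT10 the high one. After scaling, the bezafibrate pool was 2.69-fold lower at ZT10 (log2 ratio -1.43 ± 0.26), and 0.13% of the 16130 genes measured on both arrays had a lower ratio. With normexp background correction, which adds an offset of 50 units, the ratio was -0.60, still past 1.5-fold. For the brighter of the 2 Neurod2 probes (both NM_010895) the signal at ZT10 was 541 units for control and 192 for bezafibrate, and at ZT22 it was 256 and 205. Here the control pool at ZT10 stood above the other 3 arrays, of which the bezafibrate pool at ZT10 was the lowest. The bezafibrate pool was 2.93-fold lower at ZT10 (-1.55 ± 0.21), and 0.11% of measured genes had a lower ratio. The dimmer Neurod2 probe gave 57.0 and 41.9 units at ZT10 and 52.3 and 45.5 units at ZT22. It kept the order of the 4 arrays, though only the gap to the lowest array exceeded the scanner error. Its ratio at ZT10 was smaller, 1.41-fold lower (-0.50 ± 0.24).

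By a threshold of 1.5-fold, 2 of 8 members were lower and 0 higher in the bezafibrate pool at ZT10. Of all 17314 genes tested, 2.41% were lower and 1.44% higher by this threshold, and since this comparison was used to choose the members nothing is read from the difference. Slc17a7 and Neurod2 also passed 2-fold, which 0.861% of all genes did in this direction. Large ratios were much more frequent among dim genes. In the band of 4207 genes whose mean signal was under 100 units, which holds Slc17a7, 3.16% were at least 2-fold lower at ZT10. In the band of 13107 brighter genes, which holds Neurod2, this share was 0.122%.

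**Figure D1:**
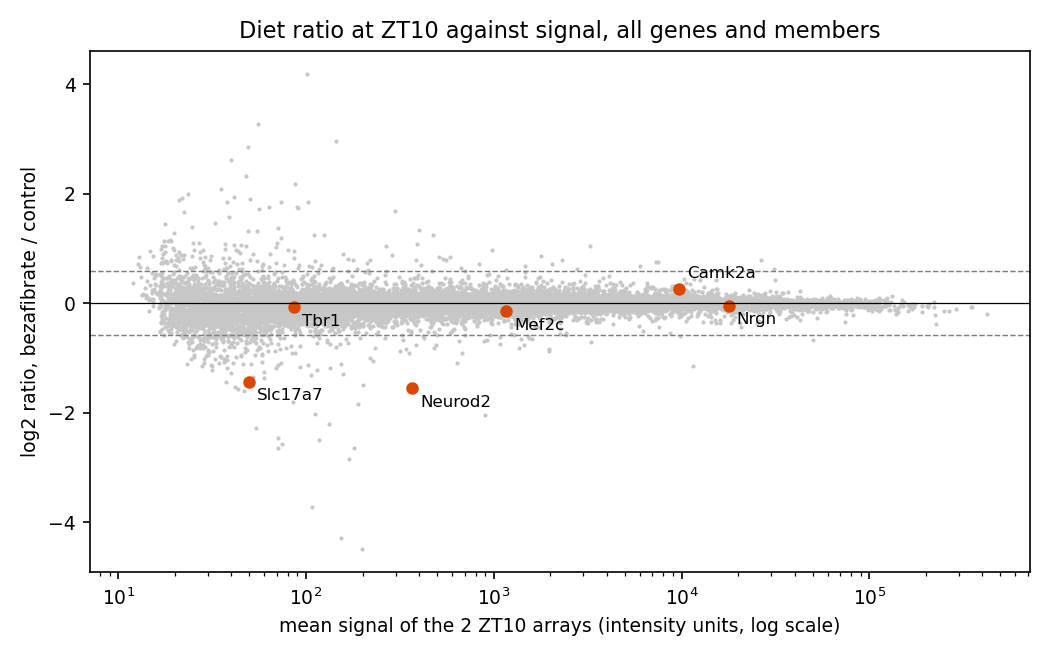
Log2 ratio of bezafibrate over control at ZT10 (vertical axis) against the mean signal of the 2 arrays (intensity units, log scale). Grey points are the 16130 genes above background on both arrays, orange points the 6 members among them, and dashed lines mark 1.5-fold. The grey points spread more at low signal, and Slc17a7 (-1.43) and Neurod2 (-1.55) lie below the lower line while Tbr1, Mef2c, Camk2a and Nrgn lie between the lines.

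The 3 abundantly measured members and Tbr1 stayed within 1.5-fold between the diets at ZT10. Nrgn (NM_022029) had 17700 units for control and 17900 for bezafibrate at ZT10, a log2 ratio of -0.04 ± 0.20 after scaling. Mef2c (NM_025282) had 1190 and 1120 units (-0.14 ± 0.20), and Tbr1 (NM_009322) had 86.3 and 85.7 units (-0.07 ± 0.22). These ratios were each smaller than the scanner error. Camk2a by its brighter probe (NM_177407) had 8620 and 10800 units, 1.21-fold higher with bezafibrate (0.27 ± 0.20), and 95.77% of measured genes had a lower ratio. Camk2a was the only member measured on both arrays with a ratio above 0. Its dimmer probe (NM_009792) had 44.4 and 46.0 units (0.00 ± 0.24). A second Mef2c probe, made to the clone AK044643, was not well above background on any array, at 1.85 to 3.19 units, and gave no ratio.

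Neurod6 and Neurod1 were close to the background limit. Neurod6 (NM_009717) had 21.4 units for control at ZT10 and 15.3 for bezafibrate, where it was not well above background. By these signals it was 1.45-fold lower with bezafibrate (-0.54 ± 0.46). Neurod1 (NM_010894) had 13.3 and 14.1 units, the latter not well above background, and no fold is given. The lowest signal called well above background ranged from 8.1 to 13.6 units over the 4 arrays, so both probes were read near that limit.

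**Figure D2:**
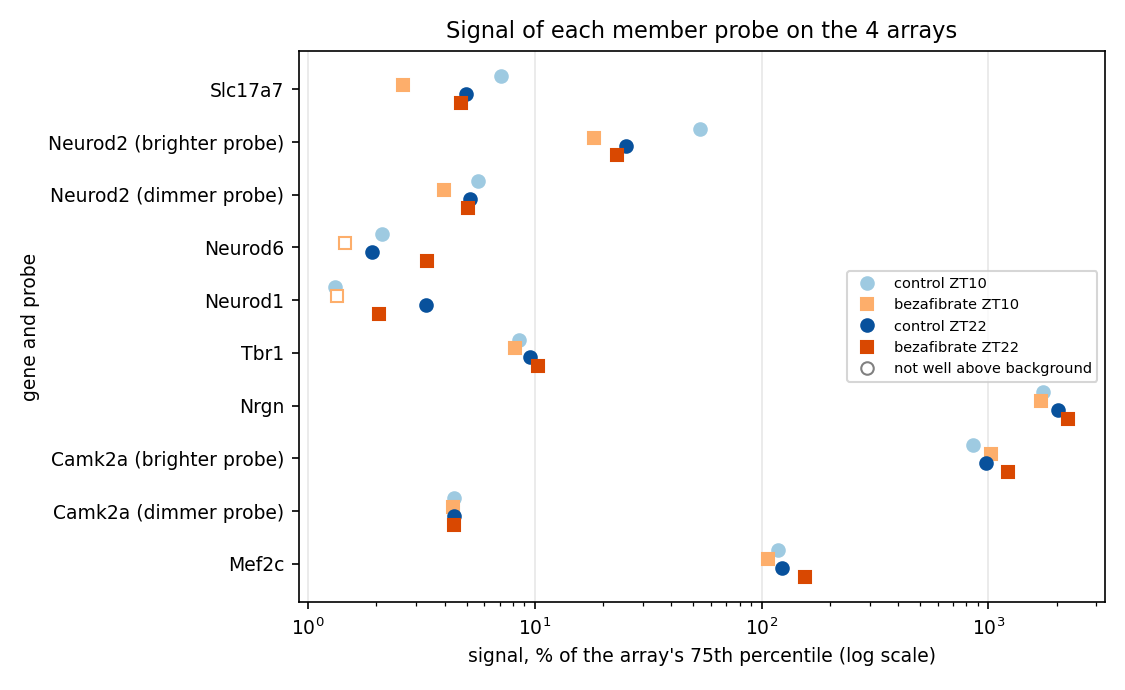
Processed signal of the 10 member probes that were above background on at least 1 array, as percent of the 75th percentile of that array (log scale). Circles are control pools, squares bezafibrate pools, light colours ZT10 and dark colours ZT22, with open symbols where a spot was not well above background. Slc17a7 runs from 2.63 to 7.08% and the brighter Neurod2 probe from 18.3 to 53.6%, while the dimmer Camk2a probe keeps between 4.38 and 4.42%.

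At ZT22, Slc17a7 and Neurod2 were within scanner error of the control pool, and members moved in both directions. The log2 ratio of bezafibrate over control was -0.07 ± 0.23 for Slc17a7 and -0.14 ± 0.20 for the brighter Neurod2 probe, with -0.02 ± 0.23 for the dimmer. Neurod6, with 19.4 units for control and 29.9 for bezafibrate, was 1.74-fold higher (0.80 ± 0.36). Neurod1, with 33.4 and 18.4 units, was 1.6-fold lower (-0.68 ± 0.31). These 2 dim transcription factors were the members past 1.5-fold, 1 of 8 in each direction, against 3.55% of all 16962 genes lower and 2.0% higher. In the band under 100 units, which holds both genes, the same shares were 13.9% and 6.8%, and with normexp neither gene passed.

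The brighter members and Tbr1 had ratios above 0 at ZT22. Nrgn had 20600 units for control and 20100 for bezafibrate, which on the scaled signal is a ratio of 0.14 ± 0.20. The brighter Camk2a probe had 9890 and 10900 units (0.32 ± 0.20), and Mef2c had 1240 and 1390 units (0.34 ± 0.20). Tbr1 had 96.3 and 91.6 units (0.11 ± 0.22). The bezafibrate array at ZT22 had the lowest 75th percentile, so a raw signal that is equal or slightly lower can give a ratio above 0. The median of the 8 members was 0.12 at ZT22 and -0.10 at ZT10, with a median over all genes of 0.01 and 0.00.

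The diet ratio differed most between the times for Slc17a7, Neurod2 and the dim Neurod6. On the log2 scale the ratio at ZT22 minus that at ZT10 was 1.36 ± 0.34 for Slc17a7 and 1.41 ± 0.29 for the brighter Neurod2 probe. It was 1.34 ± 0.58 for Neurod6, with 1 spot not well above background, and -0.71 ± 0.56 for Neurod1. It was 0.48 ± 0.34 for the dimmer Neurod2 probe, 0.49 ± 0.29 for Mef2c, and 0.05 to 0.18 for Tbr1, Nrgn and the brighter Camk2a probe. With 1 array per group this difference has no test.

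**Figure D3:**
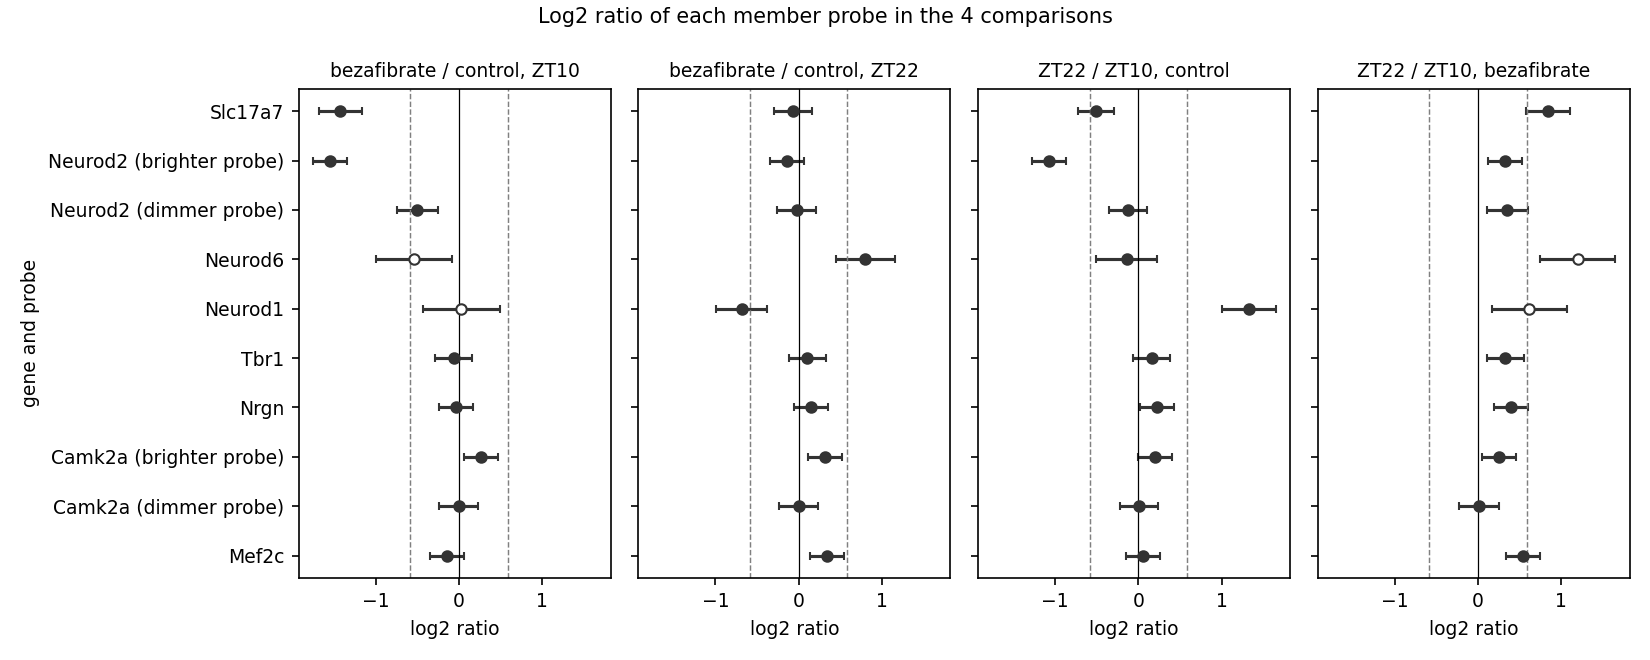
Log2 ratio of each of the 10 member probes (rows) in the 4 comparisons (panels), with bars for the scanner error and dashed lines at 1.5-fold. Open symbols are ratios with 1 array not well above background. Slc17a7 and the brighter Neurod2 probe stand left of the line at ZT10 (-1.43 and -1.55) and near 0 at ZT22 (-0.07 and -0.14).

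In control mice, Neurod2 and Neurod1 differed most between ZT22 and ZT10, in opposite directions. The brighter Neurod2 probe was 2.11-fold lower at ZT22 (-1.08 ± 0.20), whereas the dimmer probe was at -0.12 ± 0.23. Neurod1 was 2.51-fold higher (1.33 ± 0.32), from 13.3 to 33.4 units. Slc17a7 was 1.42-fold lower (-0.51 ± 0.22) and did not pass the threshold. One member of 8 was thus past 1.5-fold in each direction, with 3.01% of all 17419 genes lower and 3.52% higher. In the band under 100 units, which holds Neurod1, 11.6% were higher, and with normexp no member was past 1.5-fold higher. Neurod6, Tbr1, Nrgn, Camk2a (brighter probe) and Mef2c lay between -0.14 and 0.22.

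In bezafibrate mice, all 8 members had a higher signal at ZT22 than at ZT10 by their brightest probe. Slc17a7 was 1.8-fold higher (0.85 ± 0.26), from 27.6 to 42.2 units. Neurod6 was 2.3-fold higher (1.20 ± 0.45) and Neurod1 1.53-fold higher (0.62 ± 0.45), each against a ZT10 spot not well above background. These 3 of 8 passed 1.5-fold, none in the other direction, with 3.03% of all 16773 genes higher and 2.46% lower. All 3 lie in the band under 100 units, where 10.3% of 3668 genes were higher, and with normexp 0 members passed. Mef2c (0.55 ± 0.20), Nrgn (0.40 ± 0.20), Tbr1 (0.33 ± 0.22), Neurod2 (0.33 ± 0.21) and Camk2a (0.25 ± 0.20) were higher by less than 1.5-fold. The members' median was 0.47, and that of all genes 0.04. Of all genes, 59.5% were above 0 in this comparison. Among lists of related genes described further on, 4 of 4 measured NeuroD and neurogenin family genes were above 0. So were 3 of 3 other MEF2 genes and 2 of 2 other vesicular glutamate transporters. For CaM kinases and calmodulins it was 9 of 11, for T-box and early cortical factors 12 of 16 and for the postsynaptic density 9 of 13. The medians of these lists ran from 0.08 to 0.18. Marker lists of other cells and regions also differed between these 2 pools: 7 of 7 choroid plexus genes were above 0 (median 1.82), as were 12 of 13 striatum genes (0.28) and 16 of 19 hypothalamus genes (0.28), while 9 of 9 oligodendrocyte genes were below 0 (-0.18). Their part in the members' ratios was not tested. The dimmer probes gave 0.35 ± 0.25 for Neurod2 and 0.01 ± 0.24 for Camk2a. The comparisons share arrays: a low signal in the bezafibrate pool at ZT10 lowers the diet ratio at ZT10 and raises the time ratio in bezafibrate mice.

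The order of the scaled levels over the 4 arrays differed between members. Slc17a7 and both Neurod2 probes ran from control at ZT10, through control at ZT22 and bezafibrate at ZT22, to bezafibrate at ZT10. For Slc17a7 the gap between the top neighbours was 0.51 ± 0.22, that between the middle 2 was 0.07 ± 0.23, within scanner error, and that to the lowest was 0.85 ± 0.26. For the brighter Neurod2 probe the gaps were 1.08 ± 0.20, 0.14 ± 0.20 and 0.33 ± 0.21. For the dimmer probe they were 0.12 ± 0.23, 0.02 ± 0.23 and 0.35 ± 0.25, so only the gap to the lowest array exceeded the scanner error. Tbr1, Nrgn and Mef2c shared another order, with bezafibrate at ZT22 highest, then control at ZT22, control at ZT10 and bezafibrate at ZT10. In Tbr1 and Mef2c the whole range was 1.26-fold and 1.46-fold, and in Nrgn 1.32-fold. Only the gap at the top for Mef2c (0.34 ± 0.20) and in the middle for Nrgn (0.22 ± 0.20) exceeded the scanner error among the neighbours of these 3 genes.

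Set against the 15910 genes above background on all 4 arrays, 0.805% had a wider range than the brighter Neurod2 probe and 1.01% a wider range than Slc17a7. For Tbr1, Nrgn, the brighter Camk2a probe and Mef2c this share was 10.4% to 24.8%. These shares were not taken by signal band, although large ratios were more frequent under 100 units, where Slc17a7 lies. The dimmer Camk2a probe was at the other end, since 7 of the 15910 genes had a narrower range than its 1.01-fold. Neurod2 was 1 of 50 genes at least 1.5-fold higher in the control pool at ZT10 than on each of the other 3 arrays, and Slc17a7 was 1 of 42 at least 1.5-fold lower in the bezafibrate pool at ZT10 than on each of the others. These counts are 0.314% and 0.264% of the genes, and the pattern was looked for after the values were seen.

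In the authors' deposited table of ratios, Slc17a7 stood at 0.349 and the 2 Neurod2 probes at 0.322 and 0.666 at ZT10. The same table gave 0.905 for Slc17a7 and 0.86 and 0.936 for Neurod2 at ZT22. Relative to the ratio of processed signals, the median shift of the deposited ratios over spots was, on the log2 scale, -0.14 for the ZT10 column and 0.10 for the ZT22 column. How the authors set that shift is not known. Neurod6 and Neurod1 have no value at ZT10 in the authors' deposited table.

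The genes with the most similar course to Slc17a7 over the 4 arrays were Pomc, Tnnt1, Ramp3, Cap1 and Fbxo39. Likeness was the Euclidean distance between scaled log2 signals after each gene was centred on its mean, among 12327 genes above background on every array whose mean over the 4 arrays reached 100 units, leaving out clone and predicted-gene names. The distances were 0.41 for Pomc, the precursor of melanocortin peptides and ACTH, 0.49 for Tnnt1, a troponin T, 0.50 for Ramp3, a receptor-modifying protein, 0.51 for Cap1, an actin-binding protein, and 0.54 for Fbxo39. Neurod2 came at rank 6, with a distance of 0.55. Slc17a7 and Neurod2 were both chosen by values of these same arrays, so nothing is read from this rank. Slc17a7 itself lies under the limit of 100 units. Pomc had 15700 and 7380 units in the control and bezafibrate pools at ZT10 and 15900 and 9840 units at ZT22. Tnnt1 and Ramp3 were at -1.10 ± 0.20 and -0.81 ± 0.20 at ZT10 and belong to the thalamus list described further on. The measure rests on 4 arrays with 1 pool each.

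The other vesicular glutamate transporters differed little between arrays. Slc17a6 (VGLUT2) had 6660 and 6370 units at ZT10 in the control and bezafibrate pools and 6540 and 5550 units at ZT22, with ratios of -0.12 ± 0.20 and -0.06 ± 0.20. Slc17a8 (VGLUT3) had ratios of -0.27 ± 0.20 and -0.02 ± 0.20. Neither passed 1.5-fold in any of the 4 comparisons. The mean over all probes of a gene moved the median of both transporters at ZT10 from -0.19 to 0.025.

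Among the relatives of the transcription factors, 4 of 7 NeuroD and neurogenin family genes were above background on all 4 arrays and none passed 1.5-fold, with medians of 0.02 at ZT10 and 0.16 at ZT22. Neurod4 was at 2.91 to 3.89 units, not well above background on any array. Of 16 T-box and early cortical factors, 0 passed 1.5-fold at either time, with medians of 0.07 and 0.08. Emx1, a homeobox gene of the dorsal telencephalon, was at 0.07 ± 0.20 at ZT10 and -0.12 ± 0.20 at ZT22. Eomes, the closest T-box relative of Tbr1, was at -0.06 ± 0.36 and -0.26 ± 0.41. In the MEF2 family, Mef2a was at -0.34 ± 0.21 and 0.27 ± 0.21, Mef2b at -0.16 ± 0.21 and -0.32 ± 0.21, and Mef2d at 0.05 ± 0.20 and 0.04 ± 0.20.

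The partners of Camk2a and Nrgn stayed within 1.5-fold, apart from 1 postsynaptic gene. Camk2b, Camk2d and Camk2g, the other CaMKII subunits, were at -0.02, 0.04 and 0.08 at ZT10 and at 0.14, -0.02 and -0.03 at ZT22, each ± 0.20. Of 11 CaM kinase, calmodulin and related genes, 0 passed 1.5-fold in any comparison. Of 13 measured postsynaptic density genes, 0 passed it at ZT10 (median 0.04) and 1 was higher at ZT22 (median 0.07). That gene was Ddn (dendrin), a protein of dendrites, at 0.66 ± 0.20, from 661 units for control to 924 for bezafibrate.

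A wider list of 32 other cortex and hippocampus genes had a median ratio near 0 at ZT10. The median was 0.02, with 17 genes above 0 and 15 below, and 2 were at least 1.5-fold lower. Those were Lct, at 75 and 41.2 units (-0.92 ± 0.26), and Nell1, 1.56-fold lower (-0.64 ± 0.38). The bezafibrate spot of Nell1 was not well above background. Lct and Nell1 both lie in the band under 100 units, where 8.58% of genes were at least 1.5-fold lower at ZT10, against 2.41% of all genes. Lct, the lactase gene, also had 37.1 and 37.7 units at ZT22. It resembled Neurod2 in that the control pool at ZT10 stood above the other arrays. At ZT22 the median was 0.14, and 4 genes were at least 1.5-fold higher, against 2.0% of all genes. They were Arpp21, a cAMP-regulated phosphoprotein (1.12 ± 0.20), Crym (0.97 ± 0.20), the potassium channel gene Kcnh3 (0.67 ± 0.23) and Ddn. In bezafibrate mice 25 of 32 had a higher signal at ZT22 than at ZT10 (median 0.13), including Arpp21 (0.61 ± 0.20), and in control mice 15 of 32 did (median -0.01).

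Markers of neighbouring regions differed between the same pools. The summed scaled level of 13 striatum markers, in multiples of the 75th percentile, was 79.9 and 79.2 in the control and bezafibrate pools at ZT10 and 73.6 and 99.6 at ZT22. Most of this sum is Penk signal, with 58900 and 60700 units at ZT10 and 55100 and 66100 at ZT22 in the same order. The median log2 ratio of the 13 markers was -0.05 at ZT10 and 0.44 at ZT22, where 12 of 13 were above 0 and 5 at least 1.5-fold higher. Among those 5 were Ppp1r1b, a dopamine-regulated phosphatase inhibitor (0.96 ± 0.20), and the dopamine receptor Drd1 (0.89 ± 0.20). Of all genes, 52.0% were above 0 and 2.0% at least 1.5-fold higher at ZT22. For 14 thalamus markers the sums were 37.1 and 33.1 at ZT10 and 36.3 and 33.4 at ZT22. Their medians were -0.28 and -0.17, with 13 of 14 below 0 at each time, against 47.9% of all genes. At ZT10, 4 of the 14 were at least 1.5-fold lower, against 2.41% of all genes, and at ZT22 1 was, against 3.55%. The gene at ZT22 was Adra2b (-3.81 ± 0.27), with 264 units for control at ZT22 and 14.6 to 19.4 units on the other arrays. For the 30 other cortex and hippocampus genes above background on all arrays the sums were 102, 103, 101 and 121 over control and bezafibrate at ZT10 and then at ZT22. For the 6 members so measured they were 27.9, 28.7, 31.8 and 36.7, most of which is Nrgn and Camk2a signal. Of the markers of these 3 region lists named on the array, all but Tdo2 and Nell1 were well above background on all 4 arrays. Tdo2 was so on 2 arrays and Nell1 on 3. The part of these regions in the members' ratios was not tested. The 10 pan-neuronal genes had medians of -0.01 and 0.09 in the 2 diet comparisons.

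**Figure D4:**
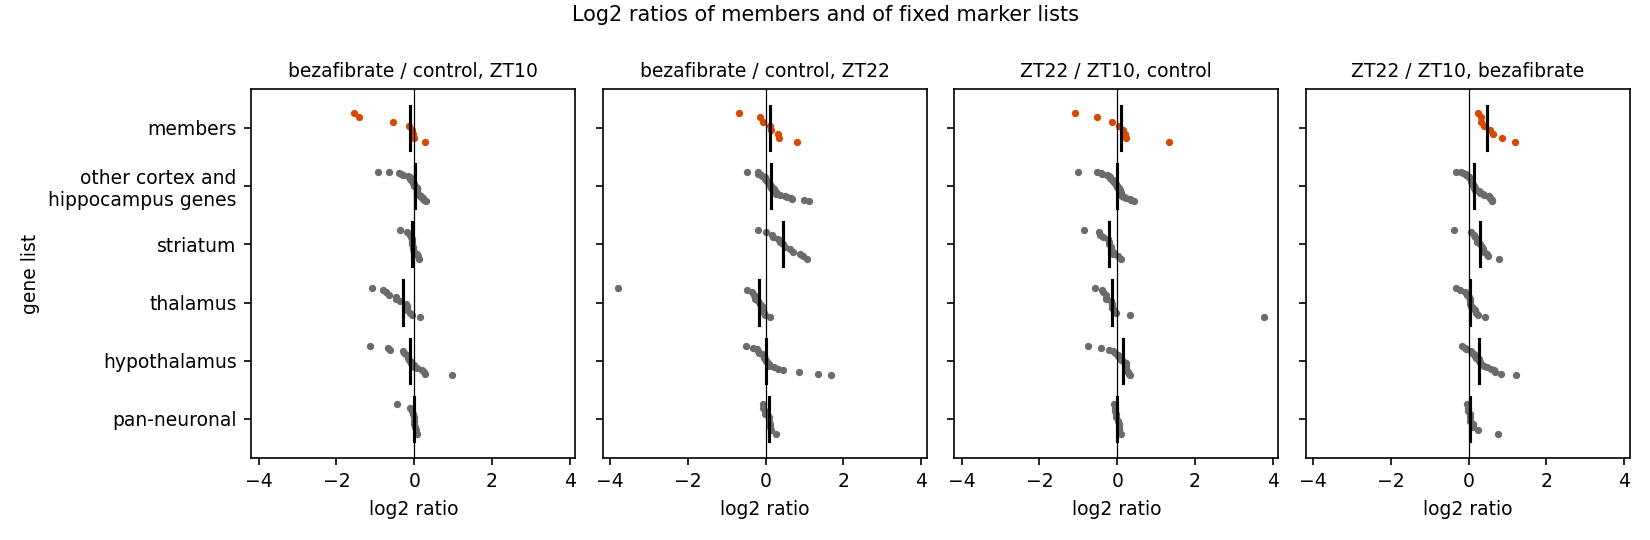
Log2 ratio of single genes (points) and median (black bar) for the 8 members (orange) and 5 lists of marker genes (grey) in the 4 comparisons, with bounds drawn at their value. At ZT10 the members' median is -0.10 with Slc17a7 and Neurod2 far to the left, and the other cortex and hippocampus genes centre on 0.02. In bezafibrate mice all 8 members lie right of 0, and at ZT22 the striatum list lies mostly right of 0 (median 0.44).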

How the data were processed

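The authors scanned one-colour Cy3 arrays and extracted them with Feature Extraction 9.5.1.1, per the file headers. The deposited processed signal is an intensity, background-subtracted and detrended within the array and not normalized between arrays. Files were matched to diet by their names within each deposited sample. The labels describe the authors' deposited ratio table as bezafibrate over control, and it correlated with these files at r of 0.996 and 0.995. The table was an alternative only.

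Each array's processed signal was taken to log2 and its 75th percentile over 43379 features that were not controls was subtracted. Outlier spots (73 to 142 per array, none of a member) were left out, and no spot was saturated. Where a gene had several probes, the brightest on average was used. Of 41174 probes, 22951 were named through their accession, 5852 by current symbol and 3931 by a former one, from RefSeq (GRCm38.p6). For a spot dim on 1 of the arrays, the dim side took its own value or, if higher, the lowest signal well above background. The result is called a bound. Where the dim spot kept its own value, the bound equals the measured ratio. A gene was counted at 1.5-fold.

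The members and lists were chosen with earlier results of these data known. The rule named all members, fixed relatives, list genes past 1.5-fold (up to 6 per list, of which some are not given) and the 5 genes nearest Slc17a7. Some items the rule names are not reported here. Further lists, of GABAergic neurons, glia and choroid plexus, had diet medians between -0.06 and 0.10 at ZT10. At ZT22 choroid plexus was at 1.31, oligodendrocytes at -0.36, and the other 3 between -0.09 and 0.05. Alternatives used limma 3.58.1 for normexp. The number of arrays limits precision.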

Additional observations from a re-analysis of the deposited data

Results flagged for a closer look

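The time ratio of 2 members had opposite signs in the 2 diets, each beyond its scanner error. Slc17a7 stood at -0.51 for ZT22 over ZT10 in control mice and at 0.85 in bezafibrate mice. The brighter Neurod2 probe stood at -1.08 in control mice and at 0.33 in bezafibrate mice, and the dimmer probe at -0.12 and 0.35. Each diet and time is 1 pool, and the difference was not tested.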

How the results depend on the processing

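The diet ratio of Slc17a7 at ZT10 stayed at least 1.5-fold lower in every setting that kept the probe, and that of the brighter Neurod2 probe did so in all. With normexp they were -0.60 and -1.28. That correction adds an offset of 50 units, which shrinks ratios of dim probes. The members at least 1.5-fold lower at ZT10 fell from 2 to 1 among genes of at least 100 units, since Slc17a7 is dimmer than that. The single lower and single higher member at ZT22 became 0 with normexp, with probes above background on all 4 arrays, with at least 100 units and at 2-fold. The member higher with time in control mice became 0 in the first 3 of these settings. The 3 members higher with time in bezafibrate mice became 0 with normexp and at 100 units, and 1 with probes above background on all 4 arrays and at 2-fold. The mean over probes moved the striatum median at ZT22 to 0.67, the choroid plexus medians to 0.88 (diet, ZT22) and 1.33 (time, bezafibrate) and the other glutamate transporters at ZT10 to 0.025. Choroid plexus was at 1.07 and 1.16 with normexp and at 1.09 and 1.40 from 100 units, and the MEF2 family at -0.22 with time in control mice from 100 units. Median scaling, quantile normalization, outlier spots and the deposited ratios moved no value beyond its scanner error and no count by over 1.5 times. No paired analysis was possible because each group has 1 array and the labels give no replicate numbers, and no replicate could be left out.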
